A study of Mus musculus with 4 samples.

Results

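The genes described here are 10 members of the Lin28 and let-7 axis, namely Lin28a, Lin28b, Zcchc11, Dis3l2, Trim71, Hmga1, Hmga2, Igf2bp1, Igf2bp2 and Igf2bp3, out of 27542 genes and transcribed loci in the deposited table. Each was found by its symbol, and where a symbol had several entries the most abundant was kept. All 10 were tested by the authors and reached 1 FPKM, a level per transcript length and library size, in either condition. RNA sequencing compared 2 kinds of TBV2, a line of embryonic stem (ES) cells from mouse. One kind carried a control labelled N.T., written NT here, and in the other the long noncoding RNA T-UCstem1, which contains an ultraconserved element, was knocked down (KD). NT cells gave 1 library and KD cells gave 3, each from a separate clone. Both were cultured in serum and LIF, the cytokine that maintains mouse ES cells, and the design text also mentions a high cell density and feeders. The authors deposited 1 value per condition, with the 3 clones combined, so the spread between clones and between control cultures was not measured, and no SD or n accompanies an FPKM. The knockdown agent is not given in the sources read for these values, and the level of T-UCstem1 was not analysed here.

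The LIN28 proteins bind the hairpin precursors of let-7 microRNAs and hold let-7 low in pluripotent cells. LIN28A recruits the uridyltransferase encoded by Zcchc11 (also named Tut4), which adds a uridine tail to the precursor, and the exonuclease DIS3L2 degrades the tailed RNA. Mature let-7 pairs through its seed, bases 2 to 8, with matches in the 3′ untranslated regions (UTRs) of messages such as Hmga2, Trim71, the Igf2bp genes and Lin28 itself, so that LIN28 and let-7 lower each other.

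The mature let-7 sequences show what the members share. In RefSeq (GRCm38.p6), 12 mature entries with 10 distinct sequences had the seed GAGGUAG, and let-7j had a different seed. Those shown first come from loci with a value above 0 in both conditions, and let-7j is shown for contrast. Capitals mark bases 2 to 8.
let-7a: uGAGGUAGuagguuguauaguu
let-7d: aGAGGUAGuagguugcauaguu
let-7f: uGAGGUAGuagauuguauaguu
let-7i: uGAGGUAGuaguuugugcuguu
let-7j: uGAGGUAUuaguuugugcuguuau

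The DNA match to the seed is CTACCTC, and CTACCTCA is the same match with an A opposite base 1, counted as the 8-base form and not a separate match. Only the strand of the message was searched, in the longest 3′ UTR of each gene in GENCODE M21 (GRCm38). Of the 10 members 8 held at least 1 match, while Zcchc11 and Dis3l2, with 3′ UTRs of 636 and 350 bases, held none. Across 21020 genes with a 3′ UTR, 9.02% held a match and 1.08% held 2 or more. The members are known let-7 targets and regulators, so their matches follow from how they were chosen. A match is a string of letters and shows no binding.

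Lin28b, Trim71, Hmga2 and Igf2bp1 held 4 matches each. Among 3′ UTRs within 20% of the same length, at least 4 matches were found in 0.236% for Lin28b, 0.504% for Trim71, 0.134% for Hmga2 and 0.355% for Igf2bp1. Lin28a held 2, both with the 8-base form, and 2.10% of 3′ UTRs of like length held as many. Hmga1, Igf2bp2 and Igf2bp3 held 1 match each, and 8.07%, 12.1% and 13.3% of 3′ UTRs of like length held at least 1. All 4 matches of Trim71 had the 8-base form, against 3 of 4 in Igf2bp1 and 1 of 4 in Lin28b and Hmga2. The sites below lie in 3′ UTR sequence, are given 5′ to 3′ on the strand of the message with GRCm38 positions, and carry the match in capitals. They are the sites of both Lin28 genes nearest the stop codon, the pair in Trim71 nearest its stop codon, all sites of Hmga2, and 1 site of each remaining gene.
Lin28a (chr4:134005178-134005207, minus strand): agcctgttgaaCTACCTCAtttttgccgat
Lin28b (chr10:45381011-45381040, minus strand): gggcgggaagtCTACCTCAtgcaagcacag
Trim71 (chr9:114512461-114512490, minus strand): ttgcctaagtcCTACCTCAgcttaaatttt
Trim71 (chr9:114512365-114512394, minus strand): ataatttctatCTACCTCAactctttgcat
Hmga2 (chr10:120364213-120364242, minus strand): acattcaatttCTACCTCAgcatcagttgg
Hmga2 (chr10:120362977-120363005, minus strand): actcctcaataCTACCTCtgaatgctaca
Hmga2 (chr10:120362539-120362567, minus strand): tttgcaaggaaCTACCTCcacacttccaa
Hmga2 (chr10:120361681-120361709, minus strand): aaaacacactaCTACCTCttaagtcccag
Hmga1 (chr17:27563281-27563309, plus strand): ctgttcacaaaCTACCTCtggacggttgt
Igf2bp1 (chr11:95961767-95961796, minus strand): tgcgaagtaaaCTACCTCAaggtgtgaagt
Igf2bp2 (chr16:22059462-22059491, minus strand): acaaataaaagCTACCTCAggtgtttttta
Igf2bp3 (chr6:49086776-49086805, minus strand): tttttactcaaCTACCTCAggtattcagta

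The first match lay 36 bases after the stop codon in Lin28b, 58 bases after it in Hmga2 and 166 bases after it in Trim71. In Lin28a the first match lay 909 bases after the stop codon and in Igf2bp1 1715 bases after it. Trim71 held its matches as 2 close pairs, at 166 and 262 bases and at 3591 and 3617 bases.

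**Figure D1:**
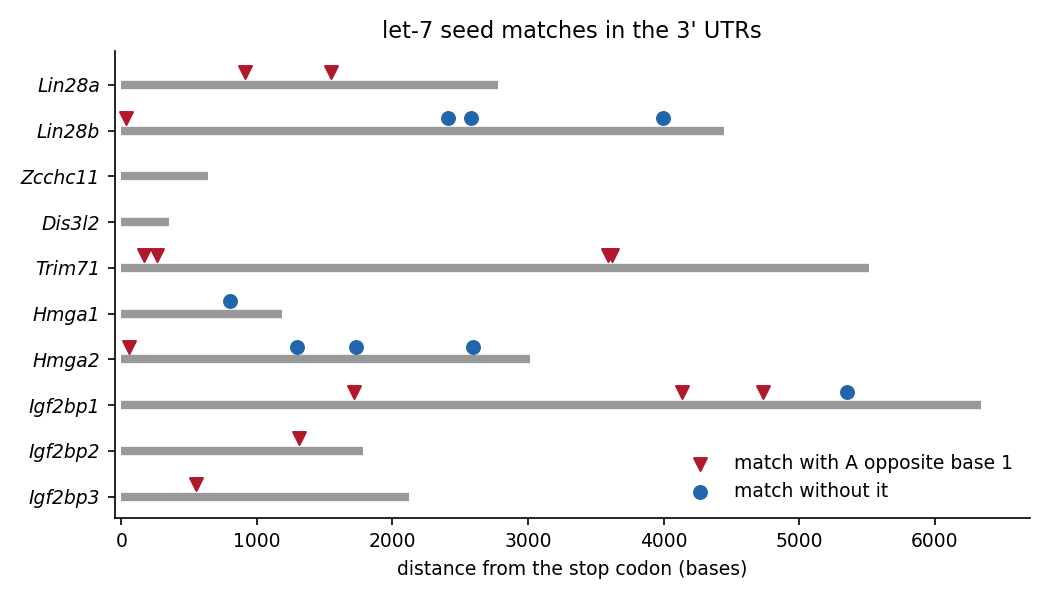
Positions of let-7 seed matches in the longest 3′ UTR of each member; the horizontal axis is the distance from the stop codon in bases, grey bars are the 3′ UTRs, triangles are matches with an A opposite base 1 and circles are matches without it. Trim71 and Igf2bp1 have the longest 3′ UTRs, at 5512 and 6337 bases, and Zcchc11 and Dis3l2 carry no match.

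Small differences between control and KD were about as common among the members as among tested genes and loci at large. On the log2 scale used below, Hmga2 differed most, followed by Dis3l2 and Lin28b, both lower in the KD. By the authors' deposited Cuffdiff test none of the 10 members was called, where 1.15% of the 15477 tested genes and loci were called. At an unadjusted deposited p under 0.05 there was 1 member, Hmga2, against 8.88% of all tested. No member lay past 2-fold on the log2(FPKM + 1) scale, where 3.57% of all tested did, and 1, Hmga2, lay past 2-fold with a pseudocount of 0.1, where 11.7% did. The KD value was the higher for 6 members and the lower for 4. Their median log2 fold, taken as log2((KD FPKM + 1)/(control FPKM + 1)), was 0.051, beside 0.0099 over the 13455 tested genes and loci with at least 1 FPKM in either condition. A difference under 0.3 on that scale was seen for 7 members, and for 65.2% of those tested at that level.

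Per transcript length, Hmga1 was the most abundant member in the control at 315 FPKM. Lin28a followed at 67.6 FPKM, Igf2bp1 at 61.3 FPKM and Trim71 at 38.2 FPKM. Zcchc11 was at 20.2 FPKM, Igf2bp2 at 16.9 FPKM, Igf2bp3 at 16.4 FPKM and Dis3l2 at 12.9 FPKM. Hmga2 and Lin28b were lowest, at 7.10 and 7.07 FPKM. With 1 value per condition, neighbours in this order cannot be separated by a measured spread. In the KD the order was the same for the 4 most abundant members, while Hmga2 stood above Dis3l2 and Igf2bp2 above Zcchc11.

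**Figure D2:**
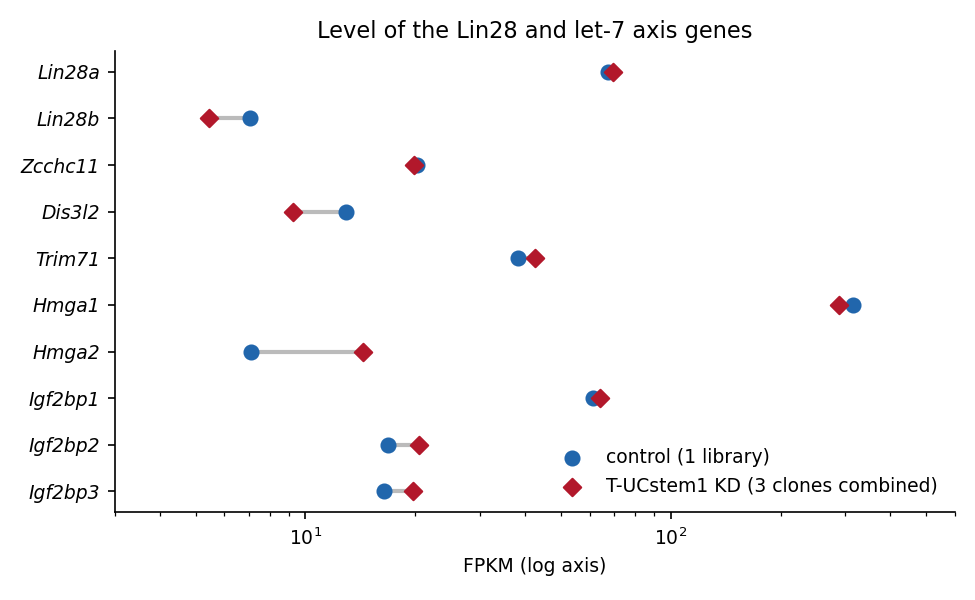
FPKM of the 10 members on a log axis; circles are the single control library and diamonds are the authors' value for the 3 KD clones combined, with no error bars because 1 value per condition was deposited. Hmga2 shows the widest gap, from 7.10 FPKM (control) to 14.4 FPKM (KD), and the markers of Lin28a, Igf2bp1 and Zcchc11 nearly coincide.

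Lin28a, the form of LIN28 abundant in naive ES cells, was nearly equal in both conditions. Its level was 67.6 FPKM in NT cells and 69.6 FPKM in KD cells (chromosome 4, 133559244 to 133574731, mm9), a log2 fold of 0.043 for which the authors' deposited table gives a q of 0.999. Of all tested genes and loci 88.6% had a larger absolute log2 fold. Lin28b, its paralog (chromosome 10, 45096332 to 45206248, mm9), was at 7.07 FPKM in NT cells and 5.46 FPKM in KD cells. That is a log2 fold of -0.32, for which the authors' deposited table gives a p of 0.258 and a q of 0.987. Lin28a stood 9.56 times above Lin28b in the control and 12.8 times above it in the KD. The sum of both was 74.7 FPKM in NT cells and 75.1 FPKM in KD cells.

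Among the enzymes that act on the precursor, Zcchc11 was nearly equal in both conditions and Dis3l2 had a lower value in the KD that was not called. Zcchc11, the uridyltransferase (chromosome 4, 108132030 to 108235665, mm9), was at 20.2 FPKM in NT cells and 19.9 FPKM in KD cells, a log2 fold of -0.022 for which the authors' deposited table gives a q of 0.999. Dis3l2, the exonuclease (chromosome 1, 88600378 to 88946672, mm9), was at 12.9 FPKM in NT cells and 9.24 FPKM in KD cells. This was the lowest KD to control ratio of the 10 members, 0.714, for which the authors' deposited table gives a p of 0.123 and a q of 0.805. A larger absolute log2 fold than the -0.44 of Dis3l2 was found in 20.9% of all tested genes and loci. In GENCODE M21, an antisense gene, Gm28375, overlaps Dis3l2 over 120709 bases. Whether counting used strand is not given in the sources, so reads of overlapping genes cannot be told apart.

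Trim71, which encodes a ubiquitin ligase and RNA-binding protein first known as LIN-41, was at 38.2 FPKM in NT cells and 42.5 FPKM in KD cells (chromosome 9, 114416083 to 114473714, mm9). The log2 fold was 0.15, for which the authors' deposited table gives a q of 0.999. The 4 matches of Trim71 stood beside a KD to control ratio of 1.11.

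The HMGA genes encode chromatin proteins that bind the minor groove of AT-rich DNA and, in these data, had values that went in opposite directions. Hmga1 (chromosome 17, 27691083 to 27700617, mm9) was at 315 FPKM in NT cells and 290.0 FPKM in KD cells, a log2 fold of -0.12 for which the authors' deposited table gives a q of 0.999. Its reads may be shared with Hmga1b, a near-identical copy that was not analysed here. Hmga2, abundant in embryonic mesenchyme (chromosome 10, 119791523 to 119913991, mm9), was at 7.10 FPKM in NT cells and 14.4 FPKM in KD cells. Its KD to control ratio was 2.02 and its log2 fold 0.92, for which the authors' deposited table gives a p of 0.0062 and a q of 0.192, so it was not called. A smaller p was found for 496 of the tested genes and loci, and a larger absolute log2 fold for 4.32% of them. Hmga1 stood 44.4 times above Hmga2 in the control and 20.2 times above it in the KD.

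For Hmga2 the authors listed another entry under the same symbol, over the same interval and not used above. It was at 1.58 FPKM in NT cells and 0.794 FPKM in KD cells, so it was lower in the KD, with a log2 fold of -0.52, a p of 0.117 and a q of 0.791, both from the authors' deposited table. In the deposited order, the 20 entries with a known strand listed closest to the abundant entry were all on the minus strand, as Hmga2 is. The 20 listed closest to the second entry were all on the plus strand. Closeness here is by place in that order and not by distance along the chromosome. GENCODE M21 places the antisense genes 1700006J14Rik and 9230105E05Rik within Hmga2 on the plus strand, with overlaps of 20180 and 3271 bases. An entry of its own was found for 9230105E05Rik, and none under the symbol 1700006J14Rik. The deposited table does not say which transcript the second entry covers. With both entries summed, Hmga2 was at 8.68 FPKM in NT cells and 15.2 FPKM in KD cells, a log2 fold of 0.74.

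The Igf2bp genes encode RNA-binding proteins that stabilise messages of growth genes. Igf2bp1 (chromosome 11, 95818461 to 95867492, mm9) was at 61.3 FPKM in NT cells and 63.9 FPKM in KD cells, with a log2 fold of 0.060. Igf2bp2 (chromosome 16, 22059081 to 22163372, mm9) was at 16.9 FPKM in NT cells and 20.5 FPKM in KD cells, with a log2 fold of 0.27. Igf2bp3 (chromosome 6, 49023793 to 49164953, mm9) was at 16.4 FPKM in NT cells and 19.7 FPKM in KD cells, with a log2 fold of 0.25. All 3 were slightly higher in the KD, and none was called, with q values of 0.999, 0.996 and 0.999 in the authors' deposited table. Their summed level was 94.6 FPKM in NT cells and 104 FPKM in KD cells, of which Igf2bp1 made up 64.8% and 61.4%. The end of Igf2bp3 overlaps Malsu1, a gene on the opposite strand, over 1529 bases in GENCODE M21, and Malsu1 was at 17.8 FPKM in NT cells and 24.7 FPKM in KD cells.

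Some chromosomes had a shifted median log2 fold, and on chromosome 10 the regions around the members did not share it. Chromosome 6, which holds Igf2bp3, had a median log2 fold of 0.26 over 603 tested genes and loci, with 78.6% above 0. The log2 fold of Igf2bp3 was close to that median, with a difference of -0.0065, and the 20 nearest genes and loci had a median of 0.40. Chromosome 10, which holds Lin28b and Hmga2, had a median of -0.19 over 655 genes and loci, with 31.9% above 0. Lin28b was 0.13 below that median. Around Lin28b the 20 nearest had a median of 0.015, and around Hmga2 they had a median of 0.29, with 17 of 20 above 0. Hmga2 lay above all 20 of its neighbours, the highest of which was at 0.72, and above 634 of the 653 other genes and loci of chromosome 10. The chromosomes of the other 7 members had medians between -0.020 and 0.034. The part of these chromosome shifts in the members' values was not tested.

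**Figure D3:**
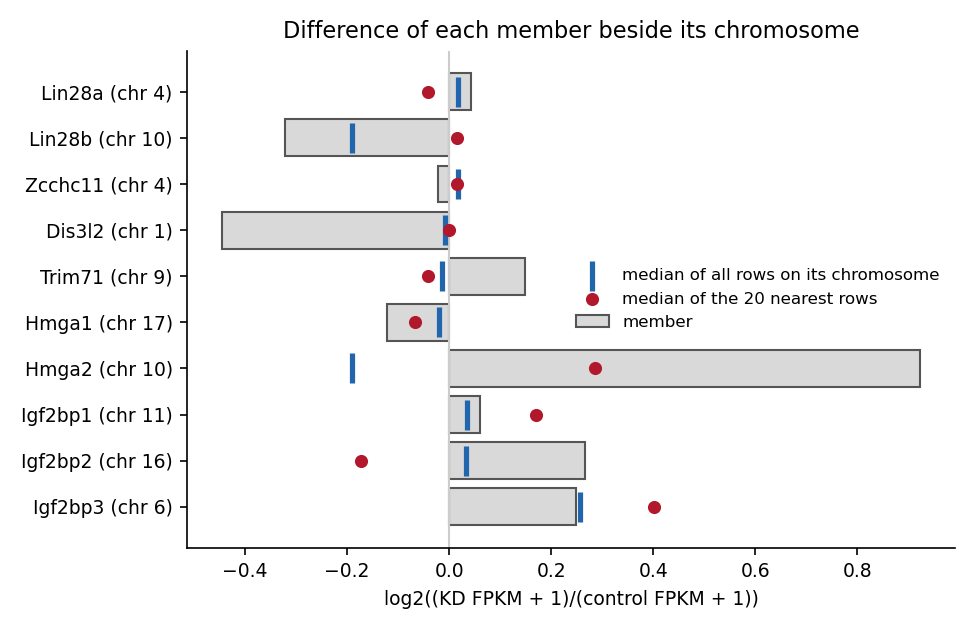
Difference of each member on the log2(FPKM + 1) scale (bars), with the median over all tested genes and loci of its chromosome (blue lines) and over its 20 nearest (red circles), at 1 FPKM or more in either condition. The bar of Igf2bp3 ends at the median of chromosome 6, whereas the bar of Hmga2 passes the medians of chromosome 10 and of its neighbours.

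The let-7 genes themselves were mostly listed at 0. Mature microRNAs are generally lost from standard RNA libraries, so these values do not measure mature let-7. How much of a primary transcript each microRNA entry covers was not examined, so a value of 0 does not show that a primary transcript was absent. The entry for the cluster of let-7a-1, let-7d and let-7f-1 was at 3.85 FPKM in NT cells and 2.92 FPKM in KD cells, a log2 fold of -0.31. The entry for let-7i was at 0.782 FPKM in NT cells and 0.548 FPKM in KD cells. The entry for let-7b and let-7c-2 was listed at 0 for NT cells and stood at 0.0247 FPKM in KD cells, and the other 6 entries for let-7 or miR-98 were listed at 0 in both. The host genes were abundant: Wdr82, whose intron holds let-7g, was at 73.0 FPKM in NT cells and 59.8 FPKM in KD cells, and Huwe1, host of let-7f-2 and miR-98, at 66.8 and 72.1 FPKM. None of the 4 entries that were tested was called by Cuffdiff, and none had an unadjusted p under 0.05. All 10 entries found for miR-125, miR-9 and miR-30, microRNAs that can target Lin28, were listed at 0 in both conditions, with the same limit.

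Other enzymes and partners of the pathway were close to equal. Of 10 tested genes for uridylation, RNA decay and LIN28 cofactors none was called by Cuffdiff, beside 1.15% of all tested. An unadjusted Cuffdiff p under 0.05 was found for 1 of them, beside 8.88% of all tested. The median log2 fold of the 10 was 0.030, with 6 above 0 and 4 below. The gene with that p was Setd7, a methyltransferase that modifies LIN28A, at 3.62 FPKM in NT cells and 5.89 FPKM in KD cells (q of 0.455, from the authors' deposited table). Trim25, a ubiquitin ligase that helps ZCCHC11 act on the precursor, was at 23.5 FPKM in NT cells and 29.7 FPKM in KD cells. Zcchc6, a uridyltransferase related to Zcchc11, was at 7.71 FPKM in NT cells and 8.84 FPKM in KD cells. Mtpap, a poly(A) polymerase of mitochondria, had a log2 fold of -0.21 and stood at 18.0 FPKM in KD cells. Xrn2 and Exosc10, nucleases of RNA decay, were the most abundant of the list, at 53.9 and 59.2 FPKM and at 34.6 and 34.0 FPKM in control and KD.

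MicroRNA processing and Argonaute genes went in both directions, with more of them lower in the KD. Of 20 tested genes none was called by Cuffdiff and none had an unadjusted p under 0.05, beside 1.15% and 8.88% of all tested. The median log2 fold of the 20 was -0.12, with 13 of 20 below 0, beside a median of 0.0099 over all tested at 1 FPKM or more. Summed over 21 genes, the level was higher in the KD, at 2190 FPKM in NT cells and 2362 FPKM in KD cells. Dicer1, which cuts precursors into mature microRNAs, was at 21.8 FPKM in NT cells and 17.7 FPKM in KD cells, a log2 fold of -0.29. Ddx17, a helicase of the nuclear processing complex, was at 245 FPKM in NT cells and 179 FPKM in KD cells, with a log2 fold of -0.45 and, from the authors' deposited table, a q of 0.728. Its partner Ddx5 was at 412 and 418 FPKM. Hnrnpa1, an RNA-binding protein that hinders let-7 processing, was at 759 FPKM in NT cells and 991 FPKM in KD cells, with a q of 0.994 by the authors' deposited table.

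Of 32 tested let-7 targets from the literature outside the members, 2 rose, 30 did not pass and there was no fall, and 4 had an unadjusted p under 0.05. Over all tested genes and loci, 1.15% were called and 8.88% had an unadjusted Cuffdiff p under 0.05. The median log2 fold of the 31 targets at 1 FPKM or more was 0.017, with 18 above 0 and 13 below. The targets that rose were Ccnd2, cyclin D2, from 1.17 to 7.12 FPKM, and Thbs1, the matrix protein thrombospondin, from 0.702 to 5.02 FPKM. For both, the authors' deposited table gives a q of 0.00815. Neither held CTACCTC in its longest 3′ UTR, whereas 26 of the 34 genes of the list did. Ccnd2 lies on chromosome 6. Arid3a, a DNA-binding protein gene with 2 matches that lies on chromosome 10, was at 7.42 FPKM in NT cells and 3.71 FPKM in KD cells, with a log2 fold of -0.84 and, from the authors' deposited table, a q of 0.171. Nap1l1, a histone chaperone, and Rrm2, a ribonucleotide reductase subunit, were the most abundant, at 382 and 362 FPKM and at 128 and 109 FPKM in control and KD. Nr6a1, a nuclear receptor gene, held 8 matches and was at 11.3 FPKM in NT cells and 12.2 FPKM in KD cells.

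Most markers of other cell types were higher in the KD, as was the value of Hmga2. Of 13 tested markers of extraembryonic endoderm, the yolk sac lineage, 10 rose and none fell, where 1.15% of all tested genes and loci were called. The summed level over 15 endoderm genes was 72.5 FPKM in NT cells and 495 FPKM in KD cells. Afp and Ttr, not tested by the authors, were listed at 0 in the control and stood at only 0.0522 and 0.532 FPKM in KD cells. Of 10 tested markers of feeder fibroblasts 3 rose and none fell, with a summed level over 14 genes of 19.5 FPKM in NT cells and 67.9 FPKM in KD cells. Those that rose were Fbln2, Tnc and Bgn. Of the 9 fibroblast genes at 1 FPKM or more, 8 had a log2 fold above 0. Below 0 was 1, Pdgfrb, at 2.73 FPKM in NT cells and 2.57 FPKM in KD cells. Of the fibroblast genes, Lum was listed at 0 in both conditions and Col3a1 was at 0.0628 FPKM in NT cells and 0.244 FPKM in KD cells. None of the 8 pluripotency markers was called by Cuffdiff, none had an unadjusted p under 0.05, and their median log2 fold was 0.077. Pou5f1, which encodes OCT4, was at 1036 FPKM in NT cells and 1078 FPKM in KD cells. The part of other cell types in the value of Hmga2 was not tested. In bulk RNA, more cells of a type and more RNA per cell cannot be told apart.

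**Figure D4:**
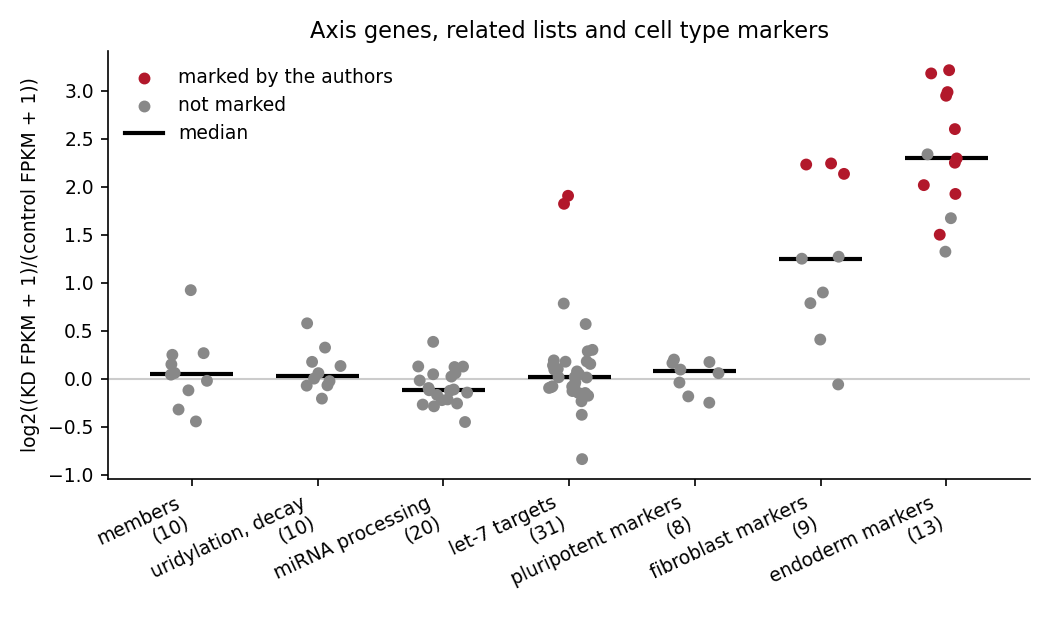
Differences on the log2(FPKM + 1) scale for the members, 3 related lists and 3 marker lists, each point a gene at 1 FPKM or more in either condition, with the number of genes in brackets, red for genes called by the authors and black lines for medians. The members and the related lists centre near 0, with medians from -0.12 to 0.051, while the fibroblast and endoderm markers have medians of 1.25 and 2.29. Without the FPKM minimum the medians of these marker lists are 0.63 and 2.25.

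Across the transcriptome, genes with let-7 seed matches had log2 folds close to those of genes without. The 10125 genes with no match had a median of 0.029, the 1058 with 1 match a median of 0.0022 and the 150 with 2 or more a median of 0.00030, with the members left out. The quartiles were -0.15 and 0.23 with no match and -0.14 and 0.21 with 2 or more. Calls in the authors' deposited table covered 1.47% of genes with no match, 1.04% with 1 match and none of the 150 with 2 or more, of which 11 (7.33%) had an unadjusted Cuffdiff p under 0.05. Genes with more matches had longer 3′ UTRs, with medians of 1061, 2188.5 and 3640 bases. Within the middle range of 3′ UTR lengths of genes with a match, the median was 0.019 for 3469 genes with no match and -0.019 for 604 with at least 1. These classes were set after the files were seen and are given as descriptions, since genes are not replicates.

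**Figure D5:**
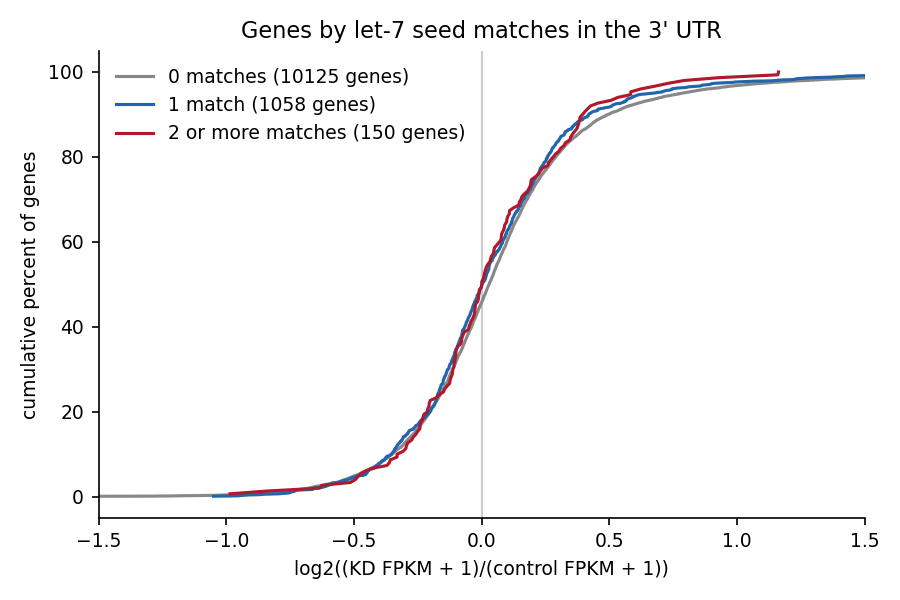
Cumulative percent of genes against the difference on the log2(FPKM + 1) scale, for genes with 0, 1 and 2 or more let-7 seed matches in the longest 3′ UTR; the axis ends at 1.5 in both directions and genes beyond it are not drawn. The curves nearly overlap, with medians of 0.029, 0.0022 and 0.00030.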

How the data were processed

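Total RNA of 4 libraries was sequenced. The tools were TopHat, Cufflinks and Cuffdiff and the build mm9, per the submitters' processing notes, while versions, options, annotation and scaling are not given in the sources. The deposited FPKM are 1 value per condition, named treated and control per the file headers; treated was taken as the 3 KD clones. The p-value and q-value are the authors' Cuffdiff values as deposited. Recomputed Benjamini-Hochberg values differed from the deposited q by at most 5.2e-07. The control was 1 library, so no spread between control cultures enters these p-values.

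Fold changes were computed with Python 3.11.15 and pandas 2.3.3 as log2((KD FPKM + 1)/(control FPKM + 1)); the pseudocount of 1 understates changes of low genes. No test was run, because each condition has 1 value. The members were named by symbol. Of each related list the text names all called genes, the 3 largest differences at 5 FPKM or more and the 2 most abundant genes. MicroRNA entries above 0 are named too. Zcchc6, Nr6a1, Malsu1, Lum, Col3a1, Fbln2, Tnc, Bgn, Pdgfrb, Afp and Ttr were added after their values were seen. Of the marker lists only these and Pou5f1 are named. Members and lists were chosen with earlier results of these data known. Older symbols were matched through RefSeq synonyms. Sequences are from RefSeq (GRCm38.p6) and GENCODE M21; mm9 and GRCm38 positions are not interchangeable. The motif search, adjustment and fold code were tested on simulated data.

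Read numbers are not stated. In the control, the most frequent low FPKM times length in kb was 0.033, among 417 genes with 1 transcript. If that is 1 fragment, about 820 fragments lie behind Hmga2, the fewest of the members, and 19000 behind Hmga1; this covers counting error only.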

Additional observations from a re-analysis of the deposited data

How the results depend on the processing

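Of 70 member values under other settings (pseudocounts of 0.1 and 0.01, 2 rescalings, summed entries, a minimum of 1 FPKM and subtraction of the chromosome median), 69 kept their direction. The exception was Igf2bp3, which was at -0.0065 after the median of its chromosome was subtracted, a setting chosen after seeing the data. Many of the others could not change direction. Another pseudocount keeps the sign, every member already passed 1 FPKM, and only Hmga2 had more than 1 entry to sum. No member was called with recomputed adjustment, at a q of 0.10 or past 2-fold on the log2(FPKM + 1) scale, where 3.57% of those tested lay. Past 2-fold on the log2(FPKM + 0.1) scale, also chosen after seeing the data, there was 1 member, Hmga2 at 1.01, beside 11.7% of those tested; the smaller pseudocount shrinks low values less. The let-7 and host gene median was 0 without an FPKM minimum, against -0.28, because most entries are listed at 0. The endoderm marker median was 2.94 with a pseudocount of 0.1, against 2.29. The fibroblast marker median was 0.63 without an FPKM minimum and 1.77 with a pseudocount of 0.1, against 1.25. No paired analysis was possible because the 3 clones were combined into 1 value, and for the same reason no clone could be left out. The single control library limits every comparison.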

Other observations

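Of the 1208 genes outside the members with at least 1 let-7 seed match in the longest 3′ UTR, 11 were called in the authors' deposited table, 9 higher and 2 lower in the KD, and each of the 11 held 1 match. Calls covered 1.04% of genes with 1 match, beside 1.41% of all 11333 genes compared. Of the calls over all those genes, 137 were higher and 23 lower in the KD. The 11 were chosen after their values were seen. The higher genes include Amot, a scaffold protein of tight junctions that binds YAP (1.17 FPKM in NT cells and 7.16 FPKM in KD cells), Slco2a1, a prostaglandin transporter (0.673 and 6.98 FPKM), Itga2, the integrin alpha-2 subunit (0.610 and 3.14 FPKM), and Ereg, the growth factor epiregulin (0.519 and 3.07 FPKM). The lower genes were Scd2, a stearoyl-CoA desaturase (66.8 FPKM in NT cells and 34.4 FPKM in KD cells), and Pcyt1b, an enzyme of phosphatidylcholine synthesis (18.6 and 8.48 FPKM). None of the 11 is among the let-7 targets listed from the literature.

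Ccnd1, cyclin D1, a listed let-7 target without CTACCTC in its longest 3′ UTR, was at 20.9 FPKM in NT cells and 36.7 FPKM in KD cells. It was not called, and the authors' deposited table gives a q of 0.126. It too was chosen after its values were seen.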
